A study of Mus musculus with 8 samples.

Results

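The septin genes of sorted mouse astrocytes are described here. The members were 8 of the 13 septin genes with a symbol in the annotation used (Sept3, Sept4, Sept6, Sept7, Sept8, Sept9, Sept10 and Sept11, also written Septin3 and so on), and 55417 gene rows were measured in all. They were matched by Ensembl gene identifier, and all 8 had counts in every library. The astrocytes had been flow sorted from the brains of 4 wild-type (WT) mice aged 29 days. The sources used here do not say how the sorting gate was set. Each mouse gave 1 cortical and 1 subcortical library, mice 2 and 3 being female and mice 1 and 4 male. No agent or transgene is named in the labels for any group, and the subcortical tissue is not divided further, so that it can hold several brain nuclei. RNA was read at the 3′ ends of polyadenylated transcripts, at about 1 fragment per transcript end, so that levels need no scaling by gene length. Levels are counts-per-million (CPM) values on scaled library sizes.

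Septins are GTP-binding proteins that join end to end into hexamers and octamers and then into filaments, which lie under the plasma membrane and along actin and microtubules. They form 4 groups named after SEPT2, SEPT3, SEPT6 and SEPT7, and a filament unit takes its subunits from different groups, with SEPT7 at a fixed place and members of 1 group able to stand in for each other. In the brain, septins are known from dendritic spine necks, presynaptic terminals, the fine processes of astrocytes in the cerebellum and the myelin of oligodendrocytes.

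Each library held 2484717 to 4060891 gene counts. Of 10 astrocyte markers, all 10 were detected, and they summed to 24900 to 27200 CPM in cortical libraries, against 17000 to 18400 CPM in subcortical ones. Of these 10, 3 were called higher and 1 lower in cortical libraries. The glutamate transporter genes Slc1a2 (on average 9640 CPM in cortical libraries, against 5490 CPM in subcortical ones) and Slc1a3 (5780 CPM, against 2390 CPM) made up most of the gap, while the water channel gene Aqp4 averaged 480 CPM, against 1040 CPM. Transcripts of other cells were present as well. The 11 markers of mature oligodendrocytes, all detected, summed to 897 to 1420 CPM in cortical libraries, against 2330 to 5840 CPM in subcortical ones, and the 9 microglial markers, also all detected, to 160 to 355 CPM, against 114 to 203 CPM. The 10 neuronal markers, all detected, summed to 95.6 to 169 CPM in cortical libraries, against 73.1 to 122 CPM in subcortical ones. The 7 markers of oligodendrocyte precursors summed to 139 to 235 CPM in cortical libraries, against 303 to 456 CPM in subcortical ones, with Gpr17 at 0 in all libraries. The 5 mural and fibroblast markers, all detected, summed to 394 to 834 CPM, against 269 to 1010 CPM, and the 6 endothelial markers to 4.19 to 8.29 CPM, against 0.956 to 16.7 CPM, with Tek at 0 in all libraries. The 4 ependymal markers, all detected, summed to 61.2 to 101 CPM in cortical libraries, against 101 to 118 CPM in subcortical ones. Of these 4, all tested, 1 was called lower and 0 higher in cortical libraries. In bulk samples such as these, fewer cells of a type and less RNA per cell cannot be told apart.

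The members were chosen by their CPM in cortical and subcortical libraries, so their region differences are given as a description, without a test. Sept7 was the most abundant of the 8 members in both regions and stood at about the same level in each. Of the SEPT6 group, Sept8 and Sept6 stood higher in all 4 cortical libraries than in any subcortical one, as did the SEPT3-group genes Sept3 and Sept9. Sept4, of the SEPT2 group, went the other way. For 5 of the 8 members the 4 cortical and 4 subcortical values did not overlap, 4 of them higher and 1 lower in cortical libraries, beside 12.2% of all 11781 tested genes (6.54% higher and 5.65% lower). By edgeR's quasi-likelihood test, 3 of the 8 passed an adjusted p of 0.05 over all genes, 2 higher and 1 lower, beside 6.81% of the tested genes (3.42% higher and 3.39% lower), and nothing is read from these counts because the same contrast chose the members. The median log2 difference was 0.86 over the 8 members and -0.01 over all tested genes.

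Sept7 encodes the subunit that septin complexes cannot do without. It stood at 440, 471, 406 and 519 CPM in the cortical libraries of mice 1 to 4 and at 481, 447, 473 and 307 CPM in the subcortical ones. The regions overlapped, and only the subcortical library of mouse 4 lay apart from the other values. The mean was 459 ± 47.8 CPM over cortical libraries, against 427 ± 81.1 CPM over subcortical ones (SD, n = 4), and the log2 difference of 0.11 (SE 0.17) became -0.02 without subcortical 4.

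Sept4 encodes the SEPT2-group subunit known from Bergmann glia of the cerebellum, from myelin and from sperm. It stood at 79.3, 102, 58.0 and 106 CPM in the cortical libraries of mice 1 to 4 and at 200, 227, 180 and 199 CPM in the subcortical ones. Every subcortical value lay above every cortical one. The level was 2.33-fold lower in cortical libraries, with a log2 difference of -1.22 (SE 0.20) over all mice and of -1.63 to -0.90 within single mice.

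Sept8, of the SEPT6 group, is known from myelin and from presynaptic terminals. It stood at 128, 188, 167 and 122 CPM in the cortical libraries of mice 1 to 4 and at 60.0, 83.1, 69.0 and 50.7 CPM in the subcortical ones, again without overlap. The level was 2.31-fold higher in cortical libraries, with a log2 difference of 1.21 (SE 0.21). Within mice the difference was 1.09, 1.17, 1.27 and 1.26, the narrowest range among the 8 members. Sept8 was thus 1.87 ± 0.729 times as high as Sept4 in cortical libraries (SD, n = 4, range 1.15 to 2.88), against 0.326 ± 0.0595 times in subcortical libraries (SD, n = 4, range 0.255 to 0.383).

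**Figure D1:**
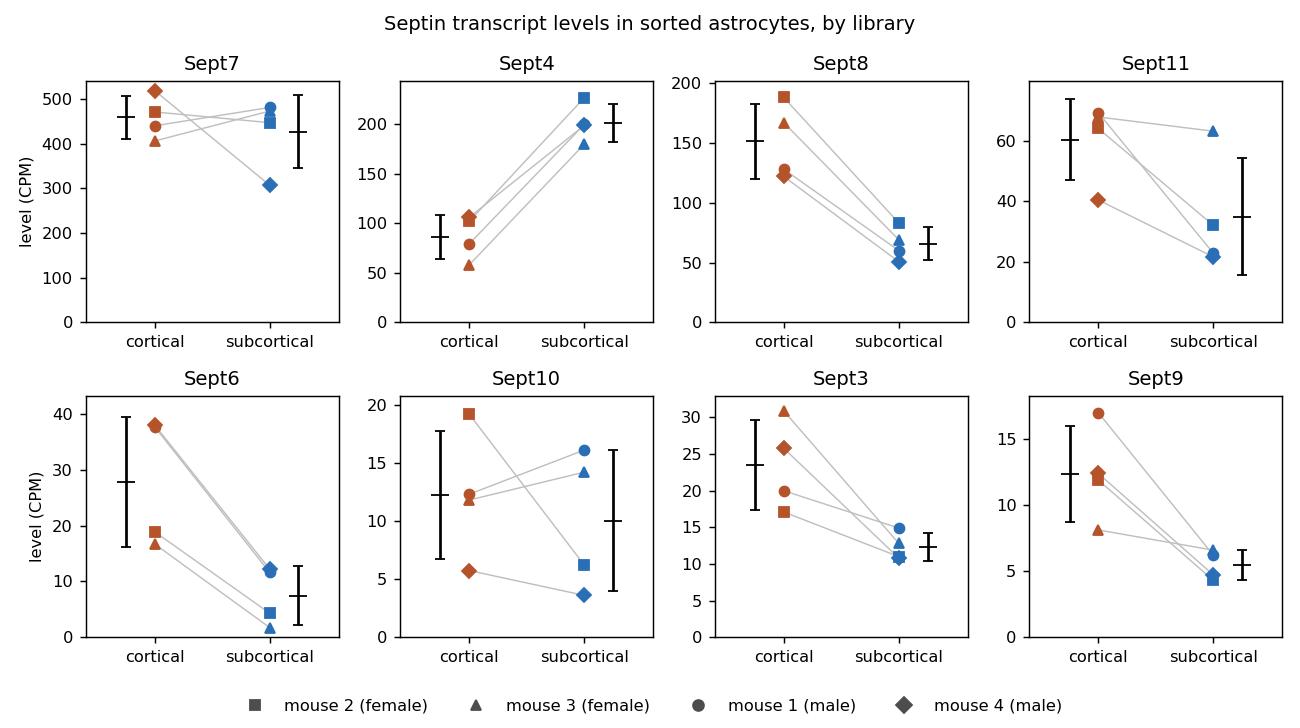
Level of each of the 8 septin transcripts in CPM (linear axes from 0, scaled per gene) in the cortical and subcortical library of each mouse, joined by a grey line; bars give the mean ± SD of 4 libraries. Sept4 is lower and Sept8, Sept6, Sept3 and Sept9 are higher in every cortical library than in any subcortical one, while Sept7, Sept10 and Sept11 overlap.

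Start-site windows of Sept8 and Sept4, which differed in opposite directions, and of Sept11 are shown so that their base make-up can be compared. RefSeq's table (build GRCm38.p6, not the GRCm39 build of the counts) held 14 windows, from 250 bases before to 50 after a start, for 6 of the 8 members; Sept3 and Sept6 were not matched. Capitals mark GGGCGG on either strand, the GC box bound by Sp1-type factors; overlapping matches run together. Which starts these cells used is not known from 3′ counts. For Sept8 the window at chr11:53519938-53520237 (plus strand) and for Sept11, another SEPT6-group gene, the window at chr5:93093166-93093465 (plus strand) are shown, beside 2 Sept4 windows, at chr11:87578139-87578438 and chr11:87580811-87581110 (both plus strand).
Sept8: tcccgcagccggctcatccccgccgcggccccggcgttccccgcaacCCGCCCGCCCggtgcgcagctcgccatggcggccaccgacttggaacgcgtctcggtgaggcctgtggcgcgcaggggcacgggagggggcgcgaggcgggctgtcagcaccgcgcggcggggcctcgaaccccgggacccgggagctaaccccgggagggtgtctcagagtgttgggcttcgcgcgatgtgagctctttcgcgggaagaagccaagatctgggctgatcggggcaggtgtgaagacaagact
Sept11: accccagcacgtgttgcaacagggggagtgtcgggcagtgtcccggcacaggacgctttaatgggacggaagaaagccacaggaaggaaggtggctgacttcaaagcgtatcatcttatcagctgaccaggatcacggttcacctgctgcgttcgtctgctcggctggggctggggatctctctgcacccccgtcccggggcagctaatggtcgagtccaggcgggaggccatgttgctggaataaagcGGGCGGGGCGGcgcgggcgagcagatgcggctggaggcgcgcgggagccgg
Sept4, first window: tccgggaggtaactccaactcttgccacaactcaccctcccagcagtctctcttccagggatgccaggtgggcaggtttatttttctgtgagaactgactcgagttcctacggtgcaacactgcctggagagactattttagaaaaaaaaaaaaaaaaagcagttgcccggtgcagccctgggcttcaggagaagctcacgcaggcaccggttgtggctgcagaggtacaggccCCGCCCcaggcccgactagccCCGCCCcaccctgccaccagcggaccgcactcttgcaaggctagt
Sept4, second window: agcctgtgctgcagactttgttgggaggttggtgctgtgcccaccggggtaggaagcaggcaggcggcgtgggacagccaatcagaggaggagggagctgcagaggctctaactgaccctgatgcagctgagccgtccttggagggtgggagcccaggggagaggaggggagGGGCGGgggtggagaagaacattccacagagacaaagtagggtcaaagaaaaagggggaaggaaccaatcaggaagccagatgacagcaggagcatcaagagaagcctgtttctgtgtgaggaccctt
The Sept8 and Sept11 windows held 38 and 25 CpG pairs at 72.3% and 64.3% G and C, and the Sept4 windows 11 and 5 CpG pairs at 57.3% and 59.0%. A further Sept8 window, not shown, held 18 CpG pairs at 64.7% G and C with no GGGCGG, and further Sept4 windows held 1 and 13 CpG pairs at 42.3% and 59.7%. The Sept7 windows, also not shown, held 14 and 43 CpG pairs at 60.7% and 77.0%, and the Sept10 window 30 at 71.0%. The Sept9 windows held 5 to 31 CpG pairs at 60.7 to 71.3%. The make-up of the windows thus did not follow the region differences throughout. The median over 32851 windows was 7 CpG pairs and 52.7% G and C. GGGCGG matched 2, 2, 2 and 1 times in the order shown and was present in 35.7% of all windows. The 14 windows of the members held no match to TAATTA, a core of LIM homeodomain sites (5.29% of all windows), to ACATGT, a core of Iroquois sites (5.28%), or to AACAATG, a core of SOX sites (3.78%), on either strand.

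The other SEPT6-group genes were less abundant. Sept6 (X chromosome) stood at 37.7, 18.9, 16.7 and 38.0 CPM in the cortical libraries of mice 1 to 4 and at 11.6, 4.30, 1.73 and 12.2 CPM in the subcortical ones. It had the largest fitted difference of the 8, 3.68-fold higher in cortical libraries (log2 1.88, SE 0.48; 1.55 to 2.25 when single libraries were left out). It passed the low-count filter in 4 cortical but only 3 subcortical libraries, and 457 counts lay behind the cortical and 86 behind the subcortical values. Sept11, known from inhibitory synapses and dendrites, stood at 69.2, 64.0, 67.8 and 40.4 CPM in cortical libraries and at 22.8, 32.0, 63.1 and 21.6 CPM in subcortical ones. The regions overlapped through subcortical 3, and the log2 difference of 0.79 (SE 0.31) was 1.25 without that library. Sept10 stood at 12.3, 19.2, 11.8 and 5.74 CPM in cortical libraries and at 16.1, 6.21, 14.2 and 3.60 CPM in subcortical ones. It was higher in the cortical library of 2 mice and lower in that of the other two (log2 0.29, SE 0.52), with mouse 4 lowest in both regions.

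The SEPT3 group supplies the subunits that turn hexamers into octamers. Sept3, known as a neuronal septin, stood at 20.0, 17.1, 30.9 and 25.8 CPM in the cortical libraries of mice 1 to 4 and at 14.9, 11, 12.8 and 10.8 CPM in the subcortical ones (log2 0.92, SE 0.34). Sept9, expressed in many tissues, stood at 17.0, 11.9, 8.12 and 12.4 CPM in cortical libraries and at 6.21, 4.30, 6.59 and 4.71 CPM in subcortical ones (log2 1.18, SE 0.50). Neither overlapped between regions, but the within-mouse differences were spread from 0.41 to 1.25 for Sept3 and from 0.28 to 1.42 for Sept9.

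**Figure D2:**
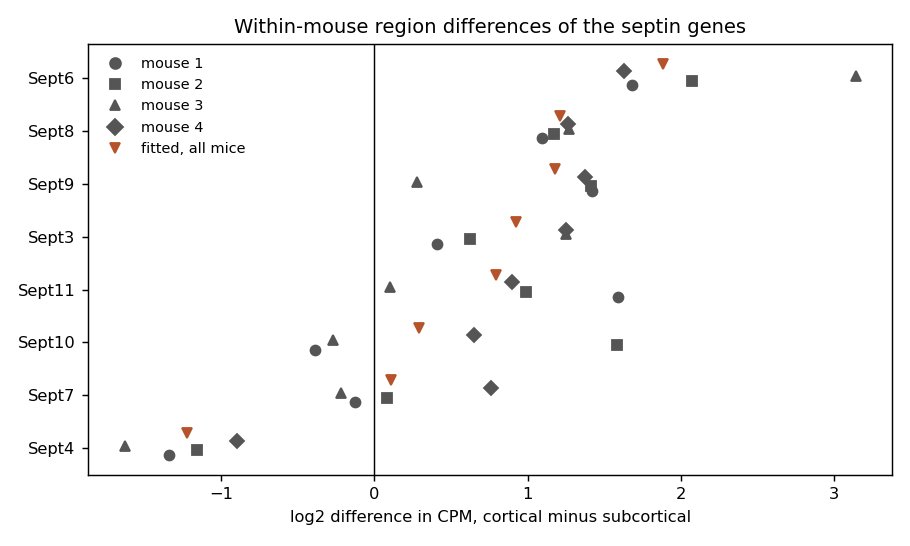
Log2 difference in CPM, cortical minus subcortical, within each of the 4 mice (grey symbols) and fitted over all mice (triangles pointing down) for the 8 septin genes. Sept8 spans 1.09 to 1.27 and Sept4 -1.63 to -0.90, whereas Sept10 spans -0.39 to 1.58.

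Ordered by level, cortical libraries had Sept7, Sept8, Sept4, Sept11, Sept6, Sept3, Sept9 and Sept10. Their means ran down to 12.4 ± 3.64 CPM for Sept9 and 12.3 ± 5.49 CPM for Sept10 (SD, n = 4). Subcortical libraries had Sept7, Sept4, Sept8, Sept11, Sept3, Sept10, Sept6 and Sept9, with 5.45 ± 1.12 CPM for the last (SD, n = 4). In cortical libraries Sept4 and Sept11, Sept6 and Sept3, and Sept9 and Sept10 overlapped as neighbours, and in subcortical libraries Sept8 and Sept11 and all neighbours from Sept3 down did.

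The summed septin level was close in the regions, with 836 ± 57.1 CPM in cortical libraries, against 766 ± 103 CPM in subcortical ones (SD, n = 4, ranges 769 to 895 and 611 to 822), while the shares of its members differed. The sum and shares cover counted reads only. Sept2 and Sept5 enter them with the few counts they had, and their levels are not known from these counts. Sept7 took 54.9 ± 3.29% of all septin counts in cortical and 55.4 ± 3.90% in subcortical libraries. The SEPT6 group took 30.2 ± 4.59% against 15.4 ± 1.92%, the SEPT2 group, nearly all of it Sept4, 10.6 ± 1.97% against 26.9 ± 4.62%, and the SEPT3 group 4.34 ± 0.803% against 2.34 ± 0.328% (SD, n = 4). The ranges of the last 3 shares did not overlap between regions. Relative to Sept7, the SEPT6 group together stood at 0.556 ± 0.111 in cortical and 0.278 ± 0.0350 in subcortical libraries (SD, n = 4), and Sept4 at 0.186 ± 0.0324 and 0.489 ± 0.119.

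**Figure D3:**
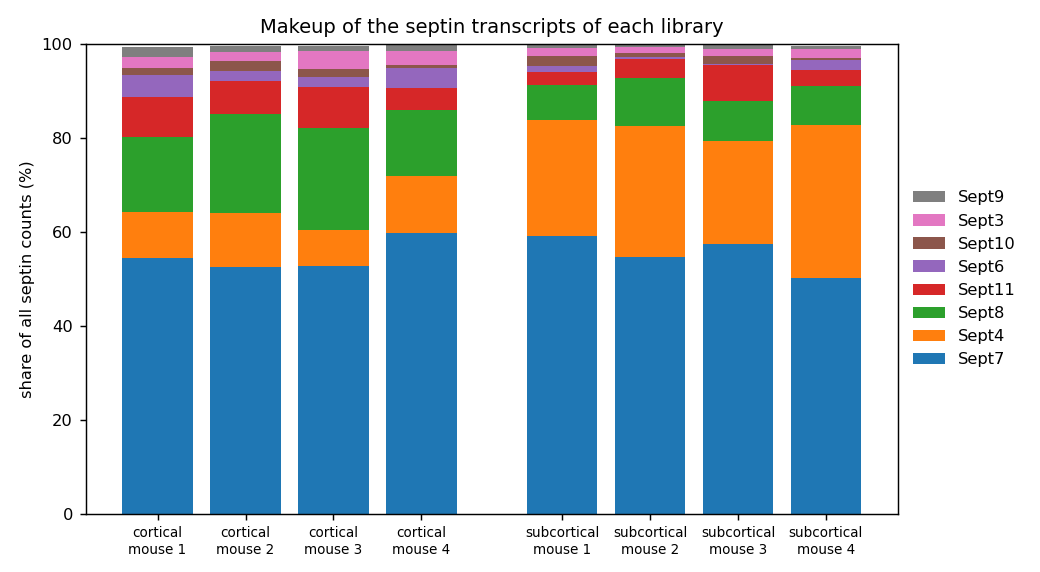
Share (%) of all septin counts taken by each member in each library, stacked, with cortical libraries on the left. Sept7 takes 50.2 to 59.7% in every library, and Sept4 takes 7.55 to 12.2% of cortical and 21.9 to 32.5% of subcortical septin counts.

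The remaining 5 septin genes passed the low-count filter in no region test. Sept1 had 24 cortical and 6 subcortical counts, Sept12, known from testis, had 3 and 0, and Sept14 had 0 in all, which allows 0.696 to 1.43 CPM in a single library. Sept2, which many tissues express, had 10 and 9 counts, and Sept5, known from synaptic vesicles, had 9 and 1. Those low values cannot be read as low expression. In the annotation at hand (GENCODE M21) a second Sept2 gene lies wholly within Sept2 exons and covers 41.8% of their bases, and the exons of Gp1bb and Gm49601 cover 48.6% and 56.3% of those of Sept5 on the same strand. Reads that touch both of 2 such genes are counted for neither under HTSeq's usual rule, and the SEPT2-group share above is nearly that of Sept4 alone. The exons of 3 of the members also touched another gene, over 1.26% (Sept4), 2.11% (Sept7, a pseudogene) and 3.12% (Sept6, an antisense gene) of their bases, and reads of Sept7 could also be split with pseudogene copies.

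Markers of other cells moved with some of these differences. Oligodendrocytes express Sept4 and Sept8. Of the 11 oligodendrocyte markers 8 were called lower and 0 higher in cortical libraries, which is the direction of Sept4 and the opposite of Sept8. The marker sum was 1270, 897, 1040 and 1420 CPM in the cortical libraries of mice 1 to 4 and 5840, 3210, 3060 and 2330 CPM in the subcortical ones. Over the subcortical libraries Sept4 lay between 180 and 227 CPM while that sum ran from 2330 to 5840 CPM, and the libraries of mice 1 and 4, at the ends of that range, had 200 and 199 CPM of Sept4. The precursor marker sum (1 of 3 tested called lower, 0 higher) also did not overlap between regions and had the direction of Sept4. Most of it was Olig1, on average 160 CPM in cortical libraries, against 339 CPM in subcortical ones. Sox10 averaged 11.4 CPM, against 18.3 CPM, and Lhfpl3 0.419 CPM, against 1.95 CPM. Cspg4 (10.6 CPM, against 10.9 CPM) and Pdgfra (0.359 CPM, against 0.434 CPM) differed little. C1ql1 went the other way, with 2.09 CPM, against 0.0867 CPM. The part of oligodendrocyte and precursor RNA in the Sept4 level was not tested. Microglial markers (3 of 8 tested called higher, 0 lower) moved in the direction of Sept6, Sept9, Sept3, Sept8 and Sept11. So did the sum of the neuroblast and division markers (2 of 2 tested higher). It was 78.8 to 101 CPM in cortical libraries, against 25.8 to 50.1 CPM in subcortical ones. Most of that sum was Sox11, on average 80.8 CPM in cortical libraries, against 37.1 CPM in subcortical ones. Top2a had 167 cortical and 9 subcortical counts, and Mki67 had 37 and 0. The neuroblast marker Dcx differed little (1.76 CPM, against 1.56 CPM). Neuronal markers had 1 of 8 tested called higher and 1 lower. On average Slc17a7 (15.7 CPM in cortical libraries, against 1.14 CPM), Rbfox3 (23.8 CPM, against 7.47 CPM) and Tubb3 (15.3 CPM, against 4.66 CPM) were higher in cortical libraries. Syt1, Stmn2 and Snap25 had that direction as well. Nefl (12 CPM, against 39.7 CPM) went the other way, as did Gad1, Gad2 and Slc32a1 by less. The part of microglial, neuroblast, dividing and neuronal RNA in the Sept6, Sept9, Sept3, Sept8 and Sept11 levels was not tested.

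**Figure D4:**
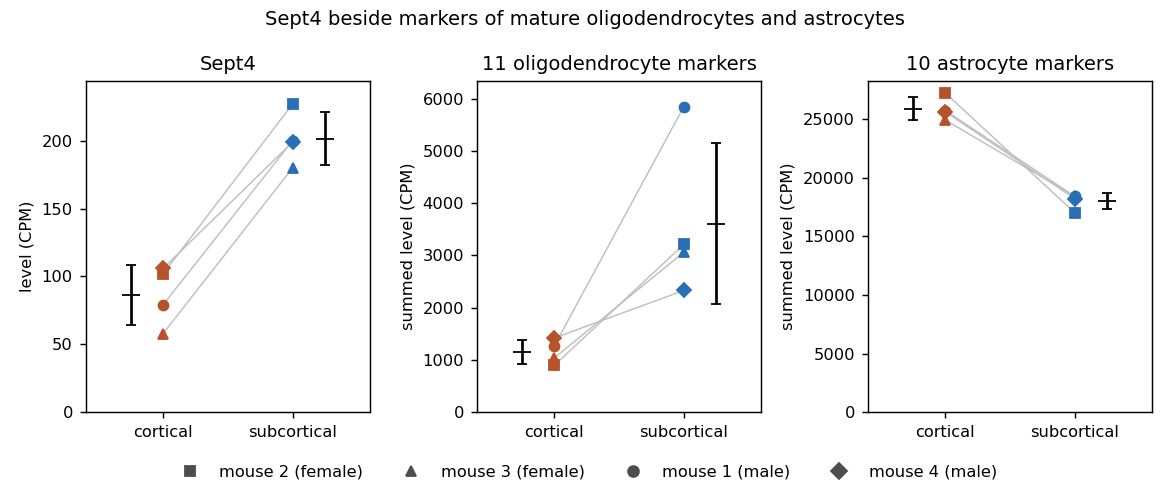
Level of Sept4 (left) beside the summed level of 11 mature oligodendrocyte markers (middle) and 10 astrocyte markers (right), in CPM, in the cortical and subcortical library of each mouse; bars give the mean ± SD of 4 libraries. Oligodendrocyte markers run from 2330 to 5840 CPM in subcortical libraries, where Sept4 runs from 180 to 227 CPM.

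The genes whose pattern over the 8 libraries lay nearest to a member, by the root mean square difference of centred log2 CPM among 7960 genes, were taken as a description. That pattern includes the region differences by which the members were chosen. For Sept4 they were the myelin gene Mobp (0.19), 1 of the 11 oligodendrocyte markers above, and Lrrn2 (0.22), against a median of 0.78 over the candidates. For Sept6 they were Vcan (0.39), which encodes the matrix proteoglycan versican, and the elastin gene Eln (0.49), against a median of 1.44. For Sept8 they were Crlf3 and Oaz2 (0.20 each, median 0.76), and for Sept11 Nsmf (0.14) and Rragd (0.16, median 0.77). For Sept3 they were Slc48a1 (0.15) and Ap2s1 (0.16, median 0.65), for Sept9 Sox21 and Sipa1 (0.21 each, median 0.75), for Sept7 Atp5e (0.11, median 0.46), and for Sept10 Etfrf1 (0.30, median 0.88).

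The members' choice did not use sex, so the sexes were compared by test, on counts summed per mouse, 2 females against 2 males. By edgeR's quasi-likelihood test and by DESeq2, 0 of 8 members passed an adjusted p of 0.05, beside 0.0373% of 13402 tested genes by edgeR (5 genes). Of the tested genes, 0.00746% were called higher and 0.0298% lower in females. On simulated counts, the edgeR fit of sex called 17.5% of changes of log2 size 1 and 66.3% of size 2. At an unadjusted p of 0.05 the members numbered 2, Sept6 and Sept8, and all genes 500. Sept6 stood at 14.0 and 10.9 CPM in the female mice 2 and 3 and at 28.4 and 26.3 CPM in the male mice 1 and 4. Its log2 difference, female minus male, was -1.14 (SE 0.34, 95% interval -1.87 to -0.41), with an unadjusted edgeR p of 0.0049 and an adjusted p of 1. All 4 female libraries lay below both male libraries of their region, a pattern that 2.82% of 11781 genes showed. In cortical libraries the female values were 18.9 and 16.7 CPM and the male values 37.7 and 38.0 CPM. In subcortical libraries they were 4.30 and 1.73 CPM in females and 11.6 and 12.2 CPM in males, from 14 and 72 counts. Leaving out single mice kept the difference between -1.32 and -0.97. It was -1.55 when the 8 libraries were fitted singly, -1.08 in cortical libraries alone and -2.02 in subcortical libraries alone, the last 2 fits having been added after the data were seen.

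Sept8 stood at 153 and 130 CPM in the female mice 2 and 3 and at 104 and 89.8 CPM in the male mice 1 and 4 (log2 0.55, SE 0.21, 95% interval 0.10 to 0.99), with an unadjusted edgeR p of 0.019 and an adjusted p of 1. All 4 female libraries lay above both male libraries of their region, as they did for 2.58% of genes. Sept11 also did not overlap between the sexes (53.5 and 67.1 CPM in females against 52.7 and 32.0 CPM in males), but its interval of -0.10 to 1.12 included 0. Such separation of 2 against 2 mice was present in 31.9% of tested genes. For Sept7 the interval was -0.33 to 0.40 and for Sept4 -0.57 to 0.35, while for Sept10 it reached from -0.55 to 1.70. The microglial marker sum was 114 to 248 CPM in female and 143 to 355 CPM in male libraries, and the oligodendrocyte marker sum 897 to 3210 CPM and 1270 to 5840 CPM. Their part in the sex differences was not tested.

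**Figure D5:**
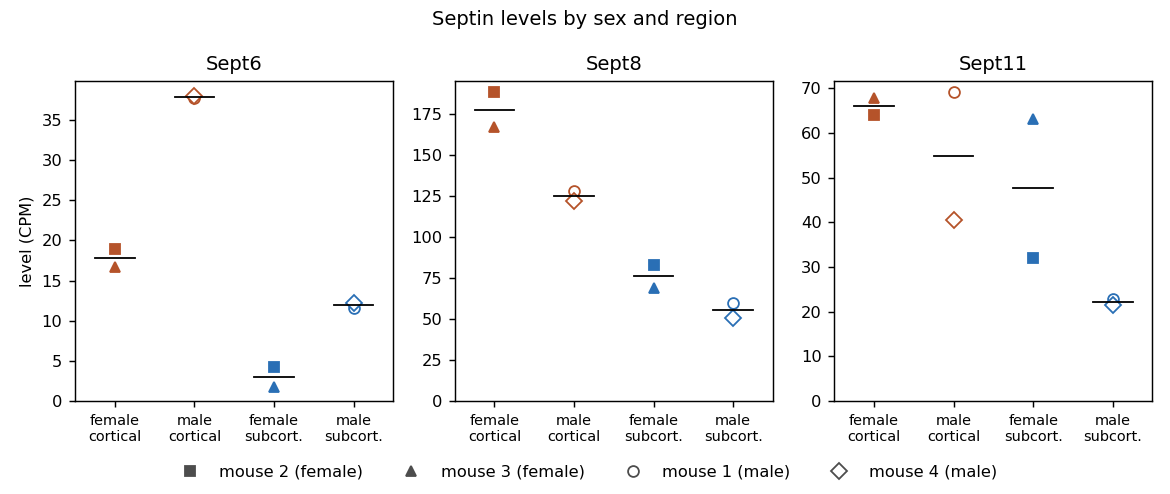
Levels of Sept6, Sept8 and Sept11 in CPM in female (filled) and male (open) libraries of each region; short lines give the mean of 2 libraries. Female values of Sept6 lie below and those of Sept8 above the male values of the same region, and those of Sept11 overlap in cortical libraries.

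Whether the region difference itself differed between the sexes was tested as an interaction, with 2 libraries per sex and region. By edgeR's quasi-likelihood test and by DESeq2, 0 of 8 members and 0 of 13334 genes (0% called) passed an adjusted p of 0.05, and at an unadjusted p of 0.05 edgeR gave 0 members and 502 genes. On simulated counts, the edgeR interaction fit called 0% of changes of log2 size 1 and 15.5% of size 2. The lack of calls therefore says little about differences of these sizes. The interval for Sept6 was -0.64 to 2.52 on the log2 scale, for Sept11 -1.96 to 0.28, for Sept8 -0.76 to 0.86 and for Sept4 -1.09 to 0.61.

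Genes for partners of septins, which did not choose the members, were tested between regions. The partner lists were drawn up with earlier results of these data known. Their p-values and counts of calls are therefore no independent support. Of 6 genes for the GTPase Cdc42 and its septin-binding effectors, 4 were tested, 1 was lower and 0 were higher in cortical libraries. Of 13 genes for other septin-binding proteins, 12 were tested, 1 was higher and 0 were lower. Together 2 of 16 were called, beside 6.81% of all tested genes. Their median log2 difference was -0.24. The effectors named Cdc42ep bind septins directly and help to arrange their filaments. Cdc42ep4, known to hold septins at the perisynaptic processes of Bergmann glia, was the most abundant of them. It had 662, 654, 887 and 664 CPM in the cortical libraries of mice 1 to 4 and 1040, 969, 624 and 984 CPM in the subcortical ones (log2 -0.33, SE 0.17, edgeR adjusted p = 0.35). Mouse 3 alone had the higher value in its cortical library. Cdc42ep1 fell in cortical libraries, with 32.0, 35.8, 44.1 and 15.8 CPM against 94.8, 40.6, 67.7 and 52.6 CPM in subcortical ones (log2 -1.0, SE 0.30, edgeR adjusted p = 0.049, lower in 4 of 4 mice). That call was lost, with an adjusted p of 0.053 to 0.23, without cortical 1, 2 or 4 or subcortical 1, 3 or 4. Cdc42ep2 had a log2 difference of -1.13 (SE 0.52, edgeR adjusted p = 0.25). The sum of the 11 oligodendrocyte markers above had the same direction as Cdc42ep1 and Cdc42ep2. The part of oligodendrocyte RNA in the levels of these effectors was not tested.

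Among the other partners Slc1a3, the gene for the glutamate transporter GLAST, which septins bind in astrocytes and which is also 1 of the astrocyte markers above, rose in cortical libraries, to 5780 ± 614 CPM against 2390 ± 303 CPM in subcortical ones (SD, n = 4; log2 1.27, SE 0.15, edgeR adjusted p = 3.3e-06), in the direction of Sept8 and opposite to Sept4. Stx1a, a neuronal syntaxin gene, stood at 12.9 to 16.9 CPM in cortical libraries, against 0.694 to 7.17 CPM in subcortical ones (log2 2.05, SE 0.62, edgeR adjusted p = 0.051). It passed the threshold with DESeq2 (adjusted p = 0.012), with a block for the mouse (adjusted p = 0.030) and when subcortical 2 was left out (0.024), whereas leaving out any other single library gave an adjusted p of 0.051 to 0.14. Of the neuronal markers, Slc17a7 averaged 15.7 CPM in cortical libraries, against 1.14 CPM in subcortical ones, Rbfox3 23.8 CPM, against 7.47 CPM, and Nefl 12 CPM, against 39.7 CPM. Their part in the Stx1a level was not tested. Stim1, a store-operated calcium entry gene, had a log2 difference of -0.53 (SE 0.20, edgeR adjusted p = 0.15). Anln, whose product anillin scaffolds septins in dividing cells and in myelin, was named after its values were seen. It had 8 cortical and 70 subcortical counts and did not pass the low-count filter; the 11 oligodendrocyte markers above had the same direction, and their part was not tested.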

How the data were processed

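RNA was measured in 8 libraries, made per the labels' protocols with the RNeasy Plus Micro kit and the forward QuantSeq 3′ mRNA-Seq kit. Named without settings in the submitters' processing notes are the build GRCm39 and STAR 2.6.0, HTSeq 0.9.0, DESeq2 1.35.0 and FastQC 0.11.5. For annotation, strand setting and molecular identifiers nothing is stated in the sources at hand. The deposited tables hold raw counts (whole numbers) of every gene in a sample, and were used unchanged. The 5 closing summary rows stayed out of library sizes; reads of no feature were 30.2 to 40.7% and ambiguous reads 0.384 to 0.548% of a library's total. A table of normalized values was not used here. Symbols were matched for 52083 of 55417 rows.

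Region (cortical minus subcortical, 4 against 4), sex (female minus male, counts summed per mouse) and their interaction were fitted with edgeR 4.0.16 in R 4.3.3 over all genes, with filterByExpr (10 counts, 15 in total), TMM factors, quasi-likelihood tests and Benjamini-Hochberg adjustment at 0.05. Scripts were tested on simulated data. Alternatives were DESeq2-type size factors, DESeq2 1.42.0, no filter, a mean of 5 CPM, the mouse as a block, leaving out each library or mouse, and for sex a fit on 8 libraries; sex within each region was added after the data were seen. CPM use TMM-scaled totals; log2 values of single libraries use a pseudocount of 0.5 counts. A count of 0 is given as a floor of 3 counts, which covers counting error only.

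The mouse number pairs the samples, since both regions came from the same animal; deviations from region means correlated at 0.00946 to 0.0454 within and at -0.0653 to 0.0371 between mice. Libraries of 1 region correlated at 0.820 to 0.875. The members and lists were chosen with earlier results of these data known. Named partners are those called for region, filled up to 3 per list by the smallest p; likeness takes the 2 nearest named genes with at least 10 CPM, of which 1 each for Sept7 and Sept10 is not reported here.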

Additional observations from a re-analysis of the deposited data

Results flagged for a closer look

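In groups of 4 libraries, single values lay far from the others for 2 of the partner genes and for none of the 8 septin members. Chance gives such a value in about 1 of 20 groups, and 28 groups were looked at. Cdc42ep4 had 887 CPM in cortical 3, where the other cortical libraries had 654 to 664 CPM, and 624 CPM in subcortical 3, where the others had 969 to 1040 CPM. Both libraries came from mouse 3; without cortical 3 the log2 difference between regions was -0.45 and without subcortical 3 it was -0.47, against -0.33 with all libraries, and neither passed the edgeR threshold (adjusted p = 0.23 and 0.094). Slc1a3 had 6700 CPM in cortical 2, the highest of the cortical libraries, and its log2 difference lay between 1.19 and 1.34 when single libraries were left out.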

How the results depend on the processing

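Leaving out single libraries moved the region differences of the members within -1.34 to -1.07 for Sept4, 1.09 to 1.34 for Sept8, 1.55 to 2.25 for Sept6, 0.98 to 1.33 for Sept9, 0.76 to 1.05 for Sept3, 0.61 to 1.25 for Sept11, 0.00 to 0.61 for Sept10 and -0.02 to 0.17 for Sept7. Calls over all genes were 614 to 775 for region, 12 to 30 for sex and 1 to 2 for the interaction when single libraries or mice were left out, against 802, 5 and 0. Without the low-count filter sex gave 15 and the interaction 1, and with the mouse as a replicate block the interaction also gave 1. Partners called higher for region numbered 2 instead of 1 with DESeq2, without the filter, at a mean of 5 CPM and with the replicate block, the added gene being Stx1a, and 1 to 2 when single libraries were left out; those called lower numbered 0 to 2. The replicate block changed no other call of a named gene, and 770 of the 802 region calls were among its 885. Of the members 0 were called for sex or interaction under any setting. Signs turned for some members. For sex these were Sept3 (-0.01 on 8 libraries, -0.10 in subcortical libraries, -0.30 to 0.37 without single mice), Sept4 (0.03 in subcortical libraries, -0.34 to 0.10), Sept7 (-0.13 in cortical libraries, -0.03 to 0.10), Sept9 (0.01 in subcortical libraries) and Sept10 (0.58 with all mice, -0.01 to 1.54), and for the interaction Sept3 (-0.32 to 0.54), Sept4 (-0.69 to 0.11), Sept8 (-0.07 to 0.19) and Sept10 (0.69 with all libraries, -0.73 to 1.43). The cause of these changes was not tested. Sept6, with 86 counts over the subcortical libraries, Sept9, with 60, and Sept10, with 106, are the members most limited by depth.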
